A study of Mus musculus with 8 samples.

Results

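The heat shock and chaperone genes Hspa1a, Hspa1b, Hspa5, Hspa8, Hspb1, Hspb8, Hsp90aa1, Hsp90ab1, Dnajb1 and Hsf1 were examined in E18.5 mouse hearts. Of these 10 genes, 8 had at least 1 probe set that the array annotation gives to that gene alone, which made 23 of the 45101 probe sets. Hsp90ab1 and Hsf1 were not analysed here. The signal of a probe set sums up several short probes for the same transcript. The array was the Affymetrix Mouse430, with 1 array per heart. The study compared 3 2lox/2lox hearts with 5 wild-type hearts to look for transcripts that differ with the genotype. The 2lox allele of Kdm1a (Aof2), the gene of the histone demethylase Lsd1, is a floxed allele that was not recombined and carries point mutations, so it is a hypomorphic allele of the whole embryo and not of the heart alone. The labels also call these hearts Lsd1 knock-out, although Kdm1a was still read on the arrays. The wild-type embryos carried no such allele, and no animal received a treatment.

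Heat shock proteins are molecular chaperones, which bind unfolded or newly made proteins and keep them from clumping. The transcription factor Hsf1 switches on the inducible members after heat, oxidative or proteotoxic stress by binding heat shock elements, inverted repeats of the bases GAA and TTC in their promoters. The members differ in their usual state in muscle. Hspa1a and Hspa1b are low until stress induces them, Hspa8 and Hsp90aa1 serve protein folding in the cytosol, Hspb1 and Hspb8 are small heat shock proteins that are abundant in muscle cells, and Hspa5 (BiP) works inside the endoplasmic reticulum (ER) and answers to the unfolded protein response instead.

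The promoters of 6 of the 8 genes were in the RefSeq promoter table (GRCm38.p6), which holds 250 bases before and 50 bases after each start site. Hspa8 and Hsp90aa1 were not among them. The bases before the start are given here for Hspa1b and Hspb1, which lay lowest and among the highest in the 2lox/2lox hearts relative to wild-type, and for Hspa5, which followed the ER genes. Capitals mark the heat shock element pair GAANNTTC in Hspa1b and Hspb1, and the ER stress element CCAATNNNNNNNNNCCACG in Hspa5. Hspb8 had no such match before its start, so its line gives only the 30 bases around its match, which lay just inside the transcribed part.
Hspa1b, chr17:34959239-34959488, minus strand: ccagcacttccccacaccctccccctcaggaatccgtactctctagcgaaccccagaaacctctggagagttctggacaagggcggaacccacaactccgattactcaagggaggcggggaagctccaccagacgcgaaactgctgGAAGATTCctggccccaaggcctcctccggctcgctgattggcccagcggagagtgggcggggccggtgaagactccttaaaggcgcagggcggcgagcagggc
Hspb1, chr5:135887669-135887918, plus strand: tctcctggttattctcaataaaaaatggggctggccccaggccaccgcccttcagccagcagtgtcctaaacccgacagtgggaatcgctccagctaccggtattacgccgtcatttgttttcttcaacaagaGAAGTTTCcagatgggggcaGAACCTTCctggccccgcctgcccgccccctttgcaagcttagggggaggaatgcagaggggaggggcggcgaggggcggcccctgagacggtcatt
Hspa5, chr2:34771840-34772089, plus strand: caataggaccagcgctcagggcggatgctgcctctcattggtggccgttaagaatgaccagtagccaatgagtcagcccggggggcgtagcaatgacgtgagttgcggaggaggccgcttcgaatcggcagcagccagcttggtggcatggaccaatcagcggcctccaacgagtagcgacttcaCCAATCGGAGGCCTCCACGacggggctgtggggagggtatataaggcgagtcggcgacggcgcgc
Hspb8, chr5:116422845-116422874, minus strand: cagaagccaggaGAAGTTTCtaggctcgcg

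Both strands were searched, also for TTCNNGAA, the other order of the same repeat. The pair GAAGATTC began at position -104, counted from the start site, in Hspa1b and also in Hspa1a. Hspb1 held GAAGTTTC at -117 and GAACCTTC at -97, and Hspb8 held GAAGTTTC at base 3 of its transcript. TTCNNGAA was found in none of the members' windows, and neither window of Dnajb1 held a match. Among 32851 mouse promoter windows of the same length, 7.86% held GAANNTTC, 8.52% held TTCNNGAA and 15.1% held either, whereas the ER stress element, found in Hspa5 at -65, was in 0.119%. A match describes the letters and does not show that a factor was bound. Hspa1a and Hspa1b are neighbouring genes on chromosome 17 with nearly the same sequence, and their promoters differed at 3 of the 250 bases before the start. Their probe sets may therefore read each other's transcripts, and the values given for either gene are uncertain in that respect.

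The targeted gene was checked first. Kdm1a (1426762_s_at) had log2 levels of 9.44, 9.53 and 9.55 in the 2lox/2lox hearts, against 10.36, 10.34, 10.29, 10.32 and 10.26 in the wild-type hearts. The log2 fold change was -0.81 (limma, adjusted p = 5.15e-04), and the other Kdm1a probe set gave -0.83 (adjusted p = 0.00176). The groups did not overlap, with 2lox/2lox lower. Cardiomyocyte genes were bright in all 8 hearts, with Myh6 between 13.19 and 13.30 in the 2lox/2lox hearts and between 13.02 and 13.45 in the wild-type hearts. In whole hearts, fewer cells of a type and less RNA per cell cannot be told apart. A sex score was the mean of the Y-chromosome genes Eif2s3y, Kdm5d and Uty minus Xist. It was negative in wild-type heart 2 (-6.98) and 2lox/2lox heart 3 (-7.25), and 2.06 to 2.68 in the other hearts. Both hearts with a negative score thus read as female.

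None of the 23 probe sets passed the test of 2lox/2lox against wild-type hearts after adjustment over all probe sets, where 0.0798% of the array passed (36 probe sets, 0.0621% higher and 0.0177% lower, limma with Benjamini-Hochberg adjustment, two-sided). Their adjusted p-values lay between 0.220 and 0.998. At an unadjusted p under 0.05, 7 probe sets of 4 genes passed, against 10.9% of the array. These were 4 higher ones, all of Hspb1 and Hspb8 (5.97% of the array was higher at this level), and 3 lower ones, of Hspa1b and Dnajb1 (4.94% of the array). Probe sets of 1 gene share a target and are not independent. The groups did not overlap in 5 of the 23 probe sets, against 6.11% of the array. In 4 of them the 2lox/2lox hearts lay above (3.41% of the array) and in 1 below (2.71%). The median log2 fold change was -0.04 over the members and -0.00 over all probe sets, and the median size without regard to sign was 0.102 over the members and 0.0666 over all. In 20 of the 23 the log2 fold change was under 0.25 in size, and no 95% interval reached beyond -0.66 or 0.78.

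**Figure D1:**
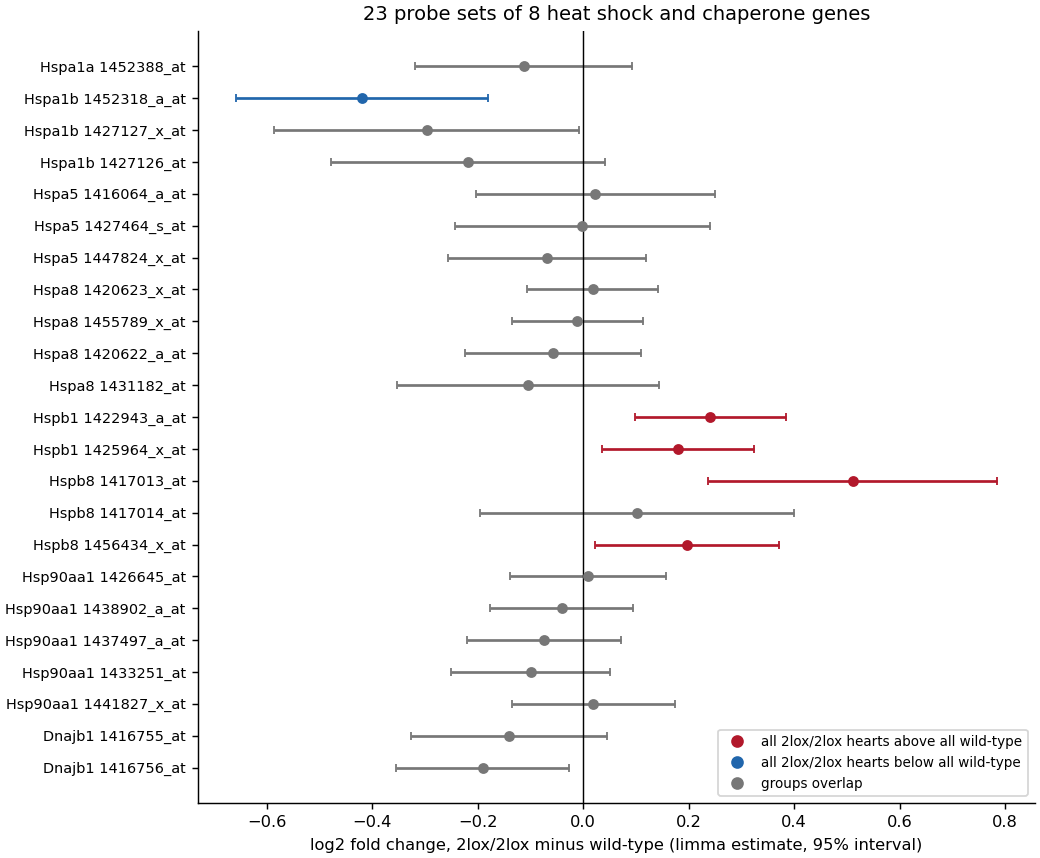
Log2 fold change of each of the 23 probe sets, 2lox/2lox minus wild-type, with the 95% interval from limma (3 and 5 hearts). Red points mark 4 probe sets of Hspb1 and Hspb8 whose 2lox/2lox hearts all lay above the wild-type hearts, the blue point marks the Hspa1b probe set whose 2lox/2lox hearts all lay below, and grey points mark overlapping groups.

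Among the members, the small heat shock proteins Hspb1 and Hspb8 had the highest values relative to wild-type. Hspb1 encodes a small heat shock protein that holds unfolded proteins and binds actin filaments. Its probe set 1422943_a_at had log2 levels of 13.11, 12.98 and 13.02 in the 2lox/2lox hearts, against 12.82, 12.69, 12.78, 12.77 and 12.91 in the wild-type hearts. Each 2lox/2lox heart lay above each wild-type heart, by 0.07 between the nearest hearts. The log2 fold change was 0.24 ± 0.06 (SE, 95% interval 0.10 to 0.38), or 1.18-fold, which did not pass the test (limma, unadjusted p = 0.00374, adjusted p = 0.250). The other Hspb1 probe set, 1425964_x_at, gave a log2 fold change of 0.18 (adjusted p = 0.354). Its groups all but touched, with 0.0008 between the nearest hearts. It correlated with the first probe set at r = 0.962 over 8 hearts.

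Hspb8 encodes a small heat shock protein that works with the co-chaperone Bag3 to send damaged muscle proteins to autophagy. Its probe set 1417013_at had log2 levels of 9.53, 9.13 and 9.19 in the 2lox/2lox hearts, against 8.98, 8.50, 8.92, 8.67 and 8.80 in the wild-type hearts. The groups did not overlap, and 2lox/2lox heart 1 stood above the other 2lox/2lox hearts. The log2 fold change of 0.51 ± 0.12 (SE, 95% interval 0.24 to 0.78), or 1.42-fold, was the largest among the members and did not pass the test (limma, unadjusted p = 0.00189, adjusted p = 0.220). With 1 heart left out at a time it lay between 0.39 and 0.59, and the lowest adjusted p was 0.0909, without 2lox/2lox heart 3. The Hspb8 probe sets did not all behave alike. The probe set 1456434_x_at had a log2 fold change of 0.20 (adjusted p = 0.397) and tracked 1417013_at (r = 0.960). Its groups did not overlap, but only 0.01 lay between the nearest hearts. The probe set 1417014_at read 7.65, 7.93 and 8.25 in the 2lox/2lox hearts, against 8.03, 7.57, 7.83, 7.86 and 7.93 in the wild-type hearts. Here the groups overlapped, with a log2 fold change of 0.10 (adjusted p = 0.850). In that probe set 2lox/2lox heart 1 was the lowest 2lox/2lox heart instead of the highest, and its correlation with 1417013_at was 0.230. Bag3, the partner of Hspb8, averaged 9.19 ± 0.23 in the 2lox/2lox hearts and 9.04 ± 0.06 in the wild-type hearts (SD, n = 3 and 5), and its log2 fold change was 0.15 (adjusted p = 0.616, limma).

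The inducible HSP70 gene Hspa1b lay in the opposite direction. Hspa1b encodes the stress-induced cytosolic HSP70, and its brightest probe set, 1452318_a_at, read 5.69, 5.96 and 5.77 in the 2lox/2lox hearts, against 6.36, 6.32, 5.99, 6.07 and 6.40 in the wild-type hearts. All 2lox/2lox hearts lay below all wild-type hearts, although 2lox/2lox heart 2 and wild-type heart 3 were only 0.03 apart. This gave a log2 fold change of -0.42 ± 0.11 (SE, 95% interval -0.66 to -0.18), or 0.748-fold, and did not pass the test (limma, unadjusted p = 0.00287, adjusted p = 0.234). The dimmer probe sets 1427127_x_at and 1427126_at had log2 fold changes of -0.30 (adjusted p = 0.447) and -0.22 (adjusted p = 0.549), with overlapping groups. The 3 probe sets ranked the hearts in a similar way, with r between 0.80 and 0.89. Hspa1a encodes nearly the same protein and was read at 4.64, 4.75 and 4.64 in the 2lox/2lox hearts, against 4.82, 4.93, 4.51, 4.89 and 4.79 in the wild-type hearts. The groups overlapped (log2 fold change -0.11, adjusted p = 0.737), and all of these values lay under 5.07, the median of the whole array, where background is a large part of the reading.

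Dnajb1 encodes the J-domain protein that delivers unfolded proteins to HSP70 and is itself induced by Hsf1. Its probe set 1416756_at read 8.43, 8.42 and 8.66 in the 2lox/2lox hearts, against 8.74, 8.58, 8.64, 8.76 and 8.75 in the wild-type hearts. 2lox/2lox hearts 1 and 2 were below every wild-type heart, and 2lox/2lox heart 3 was within the wild-type range. Its log2 fold change was -0.19 (limma, unadjusted p = 0.0272, adjusted p = 0.385), and 1416755_at gave -0.14 (adjusted p = 0.601). The same 2lox/2lox hearts 1 and 2 had the larger 3′ minus 5′ differences between control probe sets of Actb and Gapdh, a measure of RNA integrity, with 0.52 and 0.50, against 0.33 in 2lox/2lox heart 3 and 0.32 to 0.38 in wild-type. With that difference as a covariate the log2 fold change of 1416756_at was -0.05 and that of 1416755_at was -0.03. Those of the brightest probe sets of Hspb8, Hspb1 and Hspa1b were 0.40, 0.22 and -0.40 (unadjusted p = 0.0421, 0.0377 and 0.0290 in limma). Their other probe sets did not all change alike. Hspb1 1425964_x_at had 0.17 and Hspb8 1456434_x_at 0.13 (unadjusted p = 0.106 and 0.255 in limma). Hspa1b 1427127_x_at and 1427126_at had -0.25 and -0.18 (unadjusted p = 0.211 and 0.304 in limma). Hspb8 1417014_at went from 0.10 to 0.38 (unadjusted p = 0.0214 in limma). None of these passed the adjusted threshold. For the 18S ribosomal control at its 5′ end, 2lox/2lox hearts were at 8.45 to 9.07 and wild-type hearts at 9.55 to 11.49, and its part in the members' values was not tested.

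Hspa8 and Hsp90aa1, the main chaperones of the cytosol, lay close to 0. Hspa8, the constitutive cytosolic HSP70, read 13.41, 13.28 and 13.34 in the 2lox/2lox hearts, against 13.39, 13.29, 13.29, 13.30 and 13.34 in the wild-type hearts (1420623_x_at, log2 fold change 0.02, 95% interval -0.11 to 0.14, adjusted p = 0.951). The groups overlapped throughout. Its other 3 probe sets had log2 fold changes of -0.01, -0.06 and -0.10, and correlated among themselves at r = 0.02 to 0.73. The probe set 1420623_x_at, which stands for Hspa8 in the covariation because it is the brightest, correlated negatively with each of them (r = -0.25, -0.79 and -0.60). Hsp90aa1, the inducible cytosolic HSP90, read 12.73, 12.69 and 12.87 in the 2lox/2lox hearts, against 12.86, 12.78, 12.76, 12.67 and 12.69 in the wild-type hearts (1426645_at, log2 fold change 0.01, 95% interval -0.14 to 0.16, adjusted p = 0.980). Its other 4 probe sets lay between -0.10 and 0.02, and 2 of these, 1433251_at and 1441827_x_at, were dim, with means of 4.31 and 3.97 in the 2lox/2lox hearts and 4.41 and 3.95 in the wild-type hearts. The probe set 1426645_at, which stands for Hsp90aa1 in the covariation, correlated with 1438902_a_at at r = 0.10 and with 1437497_a_at at r = -0.02. With the dim 1433251_at and 1441827_x_at it had r = 0.40 and -0.49.

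Hspa5, the HSP70 of the ER, read 12.83, 12.80 and 12.64 in the 2lox/2lox hearts, against 12.90, 12.92, 12.52, 12.77 and 12.57 in the wild-type hearts. The 2lox/2lox hearts all lay inside the wild-type range, whose ends were wild-type hearts 3 and 2. The log2 fold change was 0.02 (95% interval -0.20 to 0.25, limma, adjusted p = 0.966), and the other 2 probe sets gave -0.00 and -0.07. The probe set read here, 1416064_a_at, also stands for Hspa5 in the covariation. It correlated with 1427464_s_at at r = 0.919 but with 1447824_x_at at only 0.482, and those other 2 correlated at 0.381. Whether 1447824_x_at follows the ER genes described below was not tested. The SD of Hspa5 was 0.181 among wild-type hearts, against a median of 0.0994 over all probe sets.

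**Figure D2:**
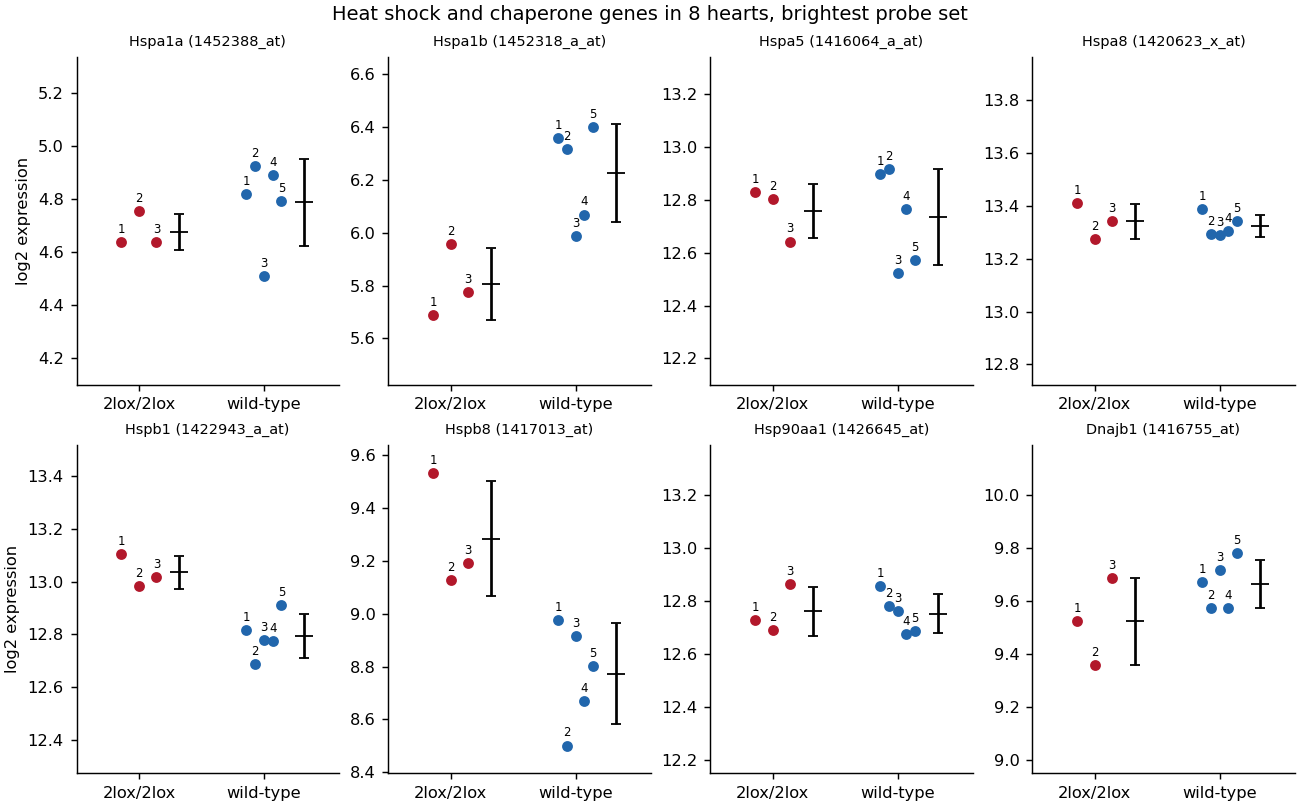
Log2 expression of the brightest probe set of each of the 8 genes, 2lox/2lox hearts (red, n = 3) left of wild-type hearts (blue, n = 5), with the mean and SD beside the points and replicate numbers above them. All panels span the same height on the log2 scale, and the groups separate in Hspb1, Hspb8 and Hspa1b and overlap in the other 5 genes.

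The covariation between hearts was then examined with the brightest probe set of each gene. The 8 genes had no common order of hearts: of 28 pairs, 13 had a positive and 15 a negative Pearson correlation over the 8 hearts, with a median r of -0.03 and a range from -0.76 to 0.91. None of the 28 passed Benjamini-Hochberg adjustment over the pairs for Pearson's r (smallest adjusted p = 0.0507) or Spearman's rho (smallest adjusted p = 0.0625), and 2 pairs had an unadjusted p under 0.05 by each measure (exact permutation tests over 40320 orders of the hearts, two-sided).

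The closest pair was Hspb1 and Hspb8, with r = 0.912 (exact permutation p = 0.00181, adjusted p = 0.0507) and rho = 0.929 (exact permutation p = 0.00223, adjusted p = 0.0625). 2lox/2lox heart 1 was the highest heart in both genes and wild-type heart 2 the lowest, and without them r was 0.755. Wild-type heart 2 had a negative sex score, and the part of sex in this correlation was not tested. Since the groups do not overlap in either gene, this r includes the difference between them, and the deviations from the group means correlated at r = 0.705. With 1 heart left out at a time r lay between 0.852 and 0.950, and with the 3′ minus 5′ difference regressed out it was 0.843. It was 0.904 with the probe set 1456434_x_at of Hspb8 but 0.303 with 1417014_at.

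The other pair was Hspa1b and Hspb8, with r = -0.761 (exact permutation p = 0.0273, adjusted p = 0.382) and rho = -0.738 (exact permutation p = 0.0458, adjusted p = 0.449). Without 2lox/2lox heart 1 and wild-type heart 5 r was -0.636, and within the groups the deviations gave r = -0.295. Hspa1a and Hspa1b correlated at r = 0.649 (exact permutation p = 0.0869), lower than the probe sets of Hspa1b did among themselves.

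**Figure D3:**
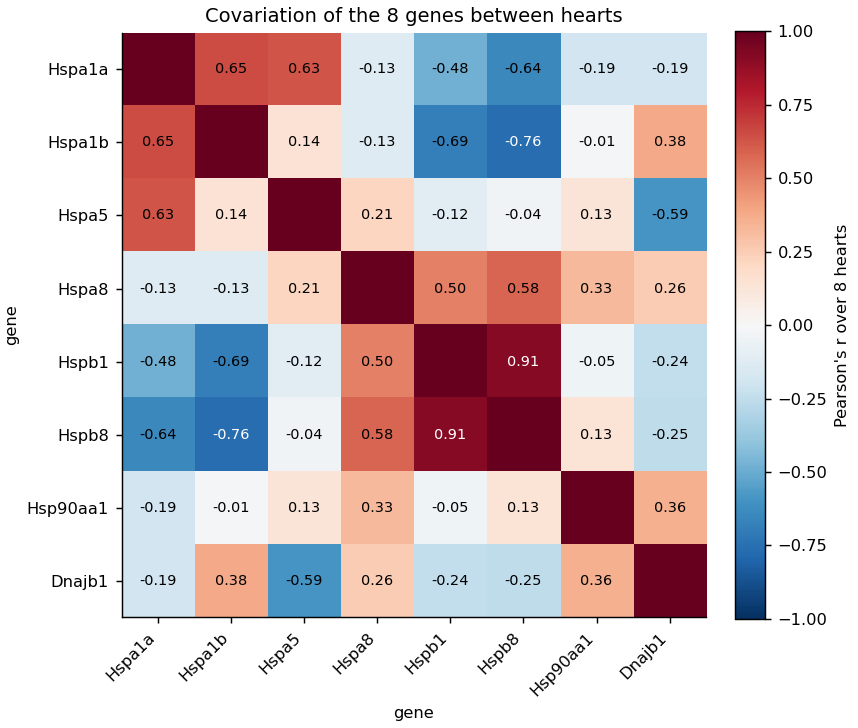
Pearson's r over 8 hearts between the brightest probe sets of the 8 genes (both axes list the genes, colour gives r). Hspb1 with Hspb8 stands at 0.91 and Hspa1b with Hspb8 at -0.76, and the other pairs lie between.

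Hspa5, read by its brightest probe set 1416064_a_at alone, was then compared between hearts with other ER genes. Among the members its largest correlations were with Hspa1a (r = 0.630, exact permutation p = 0.0968, adjusted p = 0.452) and Dnajb1 (r = -0.589, exact permutation p = 0.122, adjusted p = 0.465). Without the hearts farthest from the median these were 0.134 and -0.178. The levels of 25 other ER chaperones and genes of the unfolded protein response were averaged as log2 differences from the wild-type mean. The averages were 0.06, 0.02 and -0.07 in 2lox/2lox hearts 1 to 3, against 0.09, 0.16, -0.13, -0.02 and -0.11 in wild-type hearts 1 to 5. The order of the 8 hearts was exactly that of Hspa5, from wild-type heart 3 as the lowest to wild-type heart 2 as the highest, and the 2lox/2lox hearts fell among the wild-type hearts. Pearson's r was 0.974 (exact permutation p = 7.44e-05, adjusted p = 0.0119) and rho was 1 (exact permutation p = 4.96e-05, the smallest these permutations can give, adjusted p = 0.00794), adjusted over 160 relations of the 8 genes with 20 gene lists, of which no other passed. This comparison was added after the scores of the hearts had been seen. Without wild-type hearts 3 and 5 r was 0.954, with 1 heart left out at a time it lay between 0.966 and 0.989, and the deviations from the group means gave r = 0.975.

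Of the 25 ER genes, 23 correlated positively with Hspa5 and 18 had r over 0.7, with a median of 0.768. The closest were Atf6, the membrane-bound transcription factor that induces Hspa5 in ER stress, with r = 0.961, Manf, a secreted ER stress protein, with r = 0.932, P4hb, a protein disulphide isomerase, with r = 0.918, and Hsp90b1, the HSP90 of the ER, with r = 0.894. The 2 with a negative r were Ddit3 (CHOP) and Atf4, transcription factors of the PERK branch, with r = -0.786 and -0.198. Eif2ak3, the gene of PERK itself, had r = 0.768. Low positive values were those of Ern1 (r = 0.460), Trib3 (r = 0.245) and Herpud1 (r = 0.123). Fibroblast markers had their ends in the same wild-type hearts, with averages of 0.01 to 0.12 in the 2lox/2lox hearts, against 0.40 in wild-type heart 2 and -0.30 in wild-type heart 3 at the ends, and their r with Hspa5 was 0.639 (exact permutation p = 0.0867, adjusted p = 0.925). Other lists followed Hspa5 to a similar degree. Immediate early genes had r = 0.648 (exact permutation p = 0.0836, adjusted p = 0.925) and rho = 0.762 (exact permutation p = 0.0368, adjusted p = 0.653). Endothelial markers had rho = 0.714 (permutation, adjusted p = 0.768), and erythroid markers ran the other way at rho = -0.762 (permutation, adjusted p = 0.653). Wild-type heart 2, the highest in Hspa5, had a negative sex score. The part of these lists and of sex in the ER pattern was not tested.

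**Figure D4:**
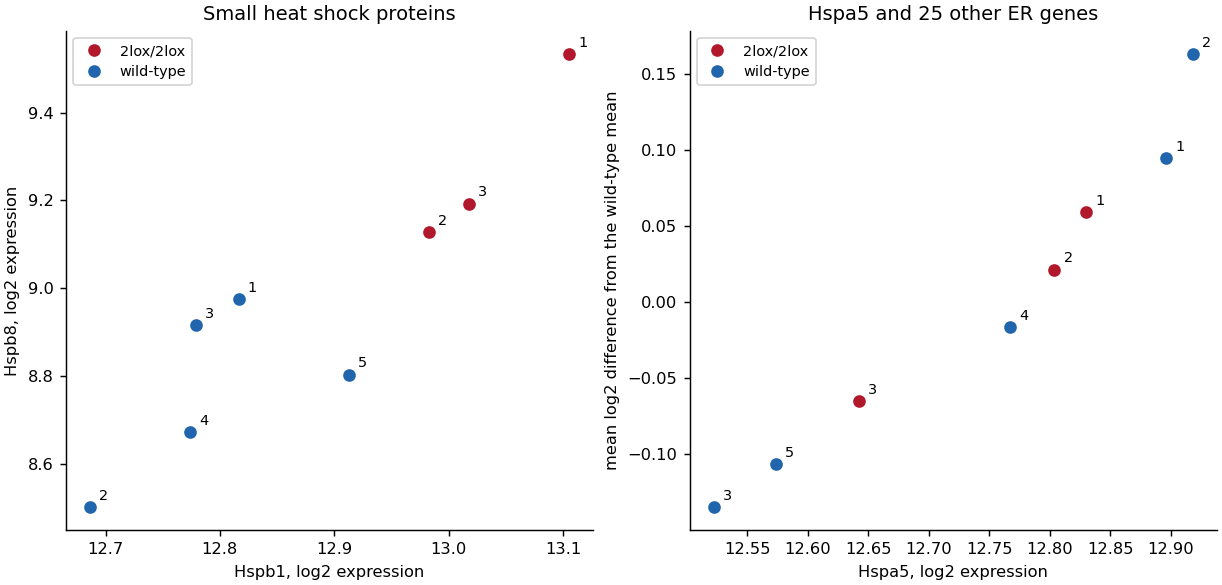
Each point is a heart (red, 2lox/2lox, n = 3, and blue, wild-type, n = 5, with replicate numbers). The left panel sets Hspb8 against Hspb1 in log2 expression (r = 0.912), and the right panel sets the mean of 25 other ER genes, as log2 difference from the wild-type mean, against Hspa5 in log2 expression (r = 0.974), where the 2lox/2lox hearts lie among the wild-type hearts.

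The genes most like each member were sought among the genes brighter on average than the array median, 11963 for most members, as the 3 highest correlations over the 8 hearts. For Hspa5 they were the homeobox genes Meox1 (r = 0.990) and Msx1 (r = 0.989) and the flippase gene Atp8b2 (r = 0.974). For Hspb8 they were Hnrnpul2 (r = 0.993), Smap2 (r = 0.982) and Ppp6r3 (r = 0.978), and for Hspb1 the actin-disassembly gene Wdr1 (r = 0.967), Ppp1r14b (r = 0.963) and Mllt6 (r = 0.963). Those of Hspa1b were Mpv17l2 (r = 0.955), Mterf3 (r = 0.951) and Zfp449 (r = 0.950), and those of Hspa1a were Zfp266 (r = 0.961), Pwp2 (r = 0.960) and Frem2 (r = 0.958). Dnajb1 was closest to Mob2 (r = 0.988), Anapc16 (r = 0.976) and Ngly1 (r = 0.965). Hspa8 was closest to Mn1 (r = 0.979), Gipc1 (r = 0.953) and Smug1 (r = 0.951), and Hsp90aa1 to 1700029I15Rik (r = 0.929), the AAA ATPase gene Ruvbl1 (r = 0.905) and Tlr4 (r = 0.904). These are the extremes of many correlations over few hearts and are given as a description. No gene was among the closest of more than 1 member.

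The rest of the chaperone system was read from lists of HSF1 targets, HSP70, HSP90 and small heat shock protein families, J-domain co-chaperones, nucleotide exchange factors, chaperonins, ER chaperones and heat shock factors. Of 98 genes, 95 were measured, and 0 passed the adjusted threshold (limma). At an unadjusted p under 0.05, 3 were higher in 2lox/2lox hearts and 0 lower, against 5.97% and 4.94% of the array. Of the 95, 50 had a positive and 45 a negative log2 fold change. Their log2 fold changes had a median of 0.00, against -0.00 over all probe sets, and ran from -0.51 to 0.27.

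Among these genes, the J-domain co-chaperone Dnajb2 averaged 7.33 ± 0.02 in the 2lox/2lox hearts and 7.09 ± 0.20 in the wild-type hearts (SD, n = 3 and 5, log2 fold change 0.24, limma adjusted p = 0.436). Hspbp1, a nucleotide exchange factor of HSP70, had a log2 fold change of 0.17 (adjusted p = 0.438), and the co-chaperone Sgta one of 0.15 (adjusted p = 0.360) with each 2lox/2lox heart above each wild-type heart. The lowest value was that of Hspb7, the cardiac small heat shock protein, which read 11.89, 11.13 and 10.71 in the 2lox/2lox hearts, against 11.80, 11.93, 12.40, 10.25 and 12.41 in the wild-type hearts. The spread within the wild-type group covered all 2lox/2lox hearts (log2 fold change -0.51, adjusted p = 0.760).

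Some relatives of the members had values near 0 and others did not, and none passed the adjusted threshold. Cryab, a small heat shock protein abundant in muscle, had a log2 fold change of 0.01 (adjusted p = 0.984), Hspb6 0.12 (adjusted p = 0.933) and Hspb2 -0.12 (adjusted p = 0.664). Of the classical HSF1 targets, Dnaja1 had -0.12 (adjusted p = 0.522), Dnajb4 -0.17 (adjusted p = 0.539), Hsph1 0.03 (adjusted p = 0.948), Hspd1 -0.01 (adjusted p = 0.980) and Hspe1 0.00 (adjusted p = 0.998). Hspa1l, the HSP70 gene beside Hspa1a and Hspa1b, had 0.27 (adjusted p = 0.513), the reverse in sign of its neighbours. Hspa12a had 0.26 (adjusted p = 0.569), Hspa2 0.16 (adjusted p = 0.512), Hspa4l -0.22 (adjusted p = 0.576) and the dim Hspb9 0.18 (adjusted p = 0.583). The HSP70 and HSP110 list held 6 positive and 5 negative values, and the list of small heat shock proteins 4 and 3. Among the ER genes Pdia6 had -0.17 (adjusted p = 0.516) and Ern1 0.20 (adjusted p = 0.637), and all 10 chaperonin genes lay between -0.11 and 0.09. Of the heat shock factors, Hsf4 had -0.18 (adjusted p = 0.510) and Hsf2 0.06 (adjusted p = 0.781), both at dim levels.

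**Figure D5:**
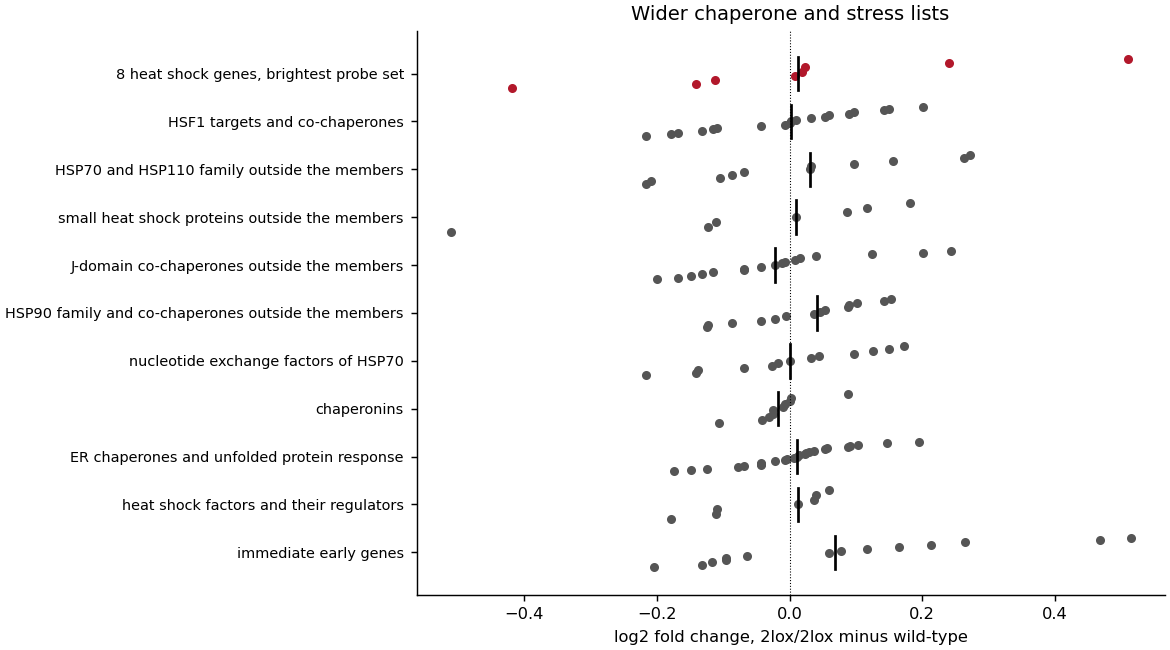
Log2 fold change, 2lox/2lox minus wild-type, of the 8 genes (red) and of the genes in each wider list (grey), 1 point per gene at its brightest probe set, with the list median as a black line. Hspb8 and Hspb1 lie at the right of the red points and Hspa1b at the left, and the list medians lie between -0.02 and 0.07.

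Immediate early genes, which respond within minutes to stress and tissue handling, were read as a further stress list. None of 14 passed. At an unadjusted p under 0.05, 3 were higher and 0 lower, against 5.97% and 4.94% of the array. Of their log2 fold changes 8 were positive and 6 negative, from -0.20 to 0.51. Zfp36 was at a log2 fold change of 0.26 (adjusted p = 0.311, limma), Ier3 at 0.51 (adjusted p = 0.325) and Egr1 at 0.47 (adjusted p = 0.354). Their list average was 0.02 to 0.18 in the 2lox/2lox hearts, against -0.06 to 0.10 in the wild-type hearts, so the groups overlapped.

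Some marker genes of other cell types differed between the genotypes. All 12 macrophage and myeloid markers had a positive log2 fold change (median 0.47), 2 of them, Lgals3 and Cybb, passed the adjusted threshold, and their average was 0.32 to 0.63 in the 2lox/2lox hearts, against -0.20 to 0.20 in the wild-type hearts. Over the 8 hearts that average correlated with Hspb1 at r = 0.764 (permutation, adjusted p = 0.732), and the deviations from the group means at r = 0.0722. Of 10 skeletal muscle markers, Tnni2 rose (log2 difference 1.32, adjusted p = 0.0240 in limma), and the list average was 0.28 to 0.39 in the 2lox/2lox hearts, against -0.08 to 0.16 in the wild-type hearts. Of the 10 log2 fold changes 8 were positive and 2 negative. Ckm had 1.14 and Acta1 0.43 (adjusted p = 0.349 and 0.466 in limma), both with overlapping groups. Among defining skeletal muscle genes, Myh1, Myh4 and Myog were dim, all below the array median of 5.07. They read between 4.13 and 4.68 in the 2lox/2lox hearts and between 4.09 and 5.02 in the wild-type hearts. Mylpf lay above that median in every heart, with overlapping groups (log2 fold change 0.16, adjusted p = 0.845 in limma). The list average followed Hspb1 (r = 0.847), Hspb8 (r = 0.788) and Hspa1b (r = -0.815) over the 8 hearts (adjusted p = 0.607 for each, permutation), and the deviations from the group means gave r = 0.302, 0.214 and -0.345. The part of these cell types in the values of Hspb1, Hspb8 and Hspa1b was not tested.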

How the data were processed

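RNA from 3 2lox/2lox and 5 wild-type E18.5 hearts was hybridized to Affymetrix Mouse430 arrays. Expression was deposited on the log2 scale, already normalized by the authors. Neither their normalization nor their summary method is stated in the sources used here; limma is listed without its version in the submitters' notes on processing. No normalization was added, since the medians of the arrays were 5.03 to 5.10. Arrays have no sequencing depth, their number limits the precision, and low values depend most on how background was treated. Hearts came from separate embryos. The paper describes them as littermates, but no litter is given for any heart.

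Groups were taken from the sample labels. Levels of the 8 hearts were compared with limma 3.58.1 in R 4.3.3 (lmFit, then eBayes; 2lox/2lox minus wild-type, two-sided). Benjamini-Hochberg adjustment covered the 45101 probe sets, at a threshold of 0.05. Genes were named from the annotation of the platform and a RefSeq gene table (99.4% of 34958 single-gene probe sets matched). A gene outside the members was represented by its brightest own probe set. Correlations used exact permutation of the hearts. Both groups have replicate numbers, but hearts that share a number did not deviate together.

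The members and lists were chosen with earlier results of these data known. The text gives every member with the log2 fold changes of all its probe sets, singly or as a range, though not every probe set identifier. It names up to 4 genes of each wider list with the smallest p. It also names the 3 genes most correlated with each member and Kdm1a. Some genes of the wider lists were chosen after their values were seen. They were Cryab, Hspb6, Hspb7, Hspe1, Hspd1, Hsph1, Bag3, Myh1, Myh4, Myog, Mylpf, Myh6 and the ER genes correlated with Hspa5. Alternatives were an intensity trend or robust moderation, median centring, quantile normalization, removal of dim probe sets, array weights, the replicate block, a sex score or the 3′ minus 5′ difference as covariate, the mean of a gene's probe sets, and each heart left out. The scripts were tested on simulated data.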

Additional observations from a re-analysis of the deposited data

How the results depend on the processing

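No member and no gene of the wider chaperone lists passed the adjusted threshold under any alternative that was run. Of 149 comparisons of a member's log2 fold change under another setting, 133 kept the direction and the side of the threshold. The exceptions were genes whose values lay near 0, and Hspb8, whose value was 0.27 over the mean of its probe sets, against 0.51. Hspa5 (0.02) had -0.0255 with the 3′ minus 5′ covariate, -0.0153 over the mean of its probe sets, and -0.0300 to 0.0815 with 1 heart left out. Hspa8 (0.02) had -0.0387 over the mean of its probe sets and -0.0156 to 0.0511 with 1 heart left out. Hsp90aa1 (0.01) had -0.00510 with array weights, -0.00480 with the sex score, -0.0371 over the mean of its probe sets, and -0.0438 to 0.0445 with 1 heart left out. The number of all probe sets past the threshold, 36, was 9 with the 3′ minus 5′ covariate and 17 to 797 with 1 heart left out, namely 797 when 2lox/2lox heart 3 was left out, 20 for 2lox/2lox heart 1, 17 for wild-type heart 1 and 23 for each of wild-type hearts 2, 3 and 4.

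Same-numbered hearts correlated at 0.0103, -0.0756 and -0.0493 in their deviations from the group means, and hearts of unlike number at -0.125 to 0.130. These few values cannot tell whether a number stands for a litter. With the replicate block 0 of all probe sets and 0 members passed, Hspa5 had -0.0200 and Hsp90aa1 had -0.0393. In that fit wild-type hearts 4 and 5 had no 2lox/2lox heart of the same number.

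The median r over the 28 pairs, -0.03, was 0.119 over the mean of each gene's probe sets, 0.0476 as Spearman's rho, 0.0951 over deviations from the group means, 0.168 with median centring, 0.169 with the 3′ minus 5′ difference regressed out, 0.131 without Hspa1a and -0.0604 to 0.0921 with 1 heart left out (0.0921 for 2lox/2lox heart 1, 0.0567 for wild-type heart 2). All of these are near 0, and the cause of the shifts was not tested. Probe sets near 5.07 or below, which hold Hspa1a and part of Hspa1b, Hspa8 and Hsp90aa1, have little signal over background, which limits what they can show.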
